A study of Mus musculus with 13 samples.

Results

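Alternative acceptor sites let the spliceosome end the same intron at different places, so that the exon that follows starts earlier or later. Of 283765 splicing events in the deposited table of mouse cerebellum, 2464 were acceptor sites that add more than 3 nt to an exon, were covered by 10 or more reads in 4 or more libraries and had a mean usage of 5 to 95% there. They lay in 1912 genes and 2193 exons. The sites were thus selected on the reads and the usage of these libraries, and their middle range of usage is a description and not a result. The table held 18568 acceptor sites beyond 3 nt in all. Of these, 15319 had 10 reads in at least 4 libraries, 6938 were left out because they were used under 5% and 5917 because they were used over 95%. Just inside the lower limit were sites of Ubr4 and Slc50a1 at 5%, and just outside it a site of Tbata at 4.98% and one of Adamts6 at 4.97%. At the upper limit a site of 5730559C18Rik was inside at 94.99% and a site of Ets1 was outside at 95.01%.

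The 13 libraries were made from cerebellar RNA of mice on the C57BL/6 background, with a stranded mRNA kit. Sam68 knockout cerebella were taken at postnatal day 1 (KO P1, 3 libraries) and day 10 (KO P10, 3 libraries), and wild-type cerebella at day 1 (WT P1, 2 libraries), day 10 (WT P10, 2 libraries) and day 30 (WT P30, 3 libraries). There was no knockout at P30, and the labels do not name the allele, the sex or whether a library is 1 animal, so p-values measure the spread between libraries, which may be technical. Usage is given as percent spliced in (PSI), the share of reads at an exon's acceptor sites that use the site in question. The expression unit is cRPKM, an RPKM value corrected for mappable length. Khdrbs1, the gene of Sam68, had 4.22 to 8.5 cRPKM in KO P1 against 56.45 and 74.4 in WT P1, and 1.28 to 3.59 in KO P10 against 56.2 and 61.2 in WT P10.

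Each library had 281627 to 479144 reads at the 2464 sites and a median of 44 to 80 reads per site. WT P1 library 8 had the fewest reads and stood apart in its markers. The summed level of 12 cerebellar marker genes was 792 to 1010 cRPKM in KO P1. In WT P1 it was 411 in library 8 and 823 in library 9. The sum of 9 midbrain and caudal hindbrain genes was 14 to 24.5 cRPKM in KO P1, against 43.3 in library 8 and 27.5 in library 9. These 9 genes had 10 entries, of which 1 was at 0 in every library. All 12 cerebellar markers were detected in the series. Markers moved with age. The 9 genes listed for mature granule cells summed to 3150 to 3430 cRPKM in WT P30 against 194 to 357 in WT P1. Of these sums, Snap25 alone made up 1562 to 1788 in WT P30 and 125 to 242 in WT P1. The 10 genes listed for granule cell precursors and proliferation summed to 11.6 to 16.4 against 158 to 323. The sum of 8 oligodendrocyte genes was 3670 to 4580 against 58.7 to 86.6. In bulk tissue a changed mixture of cell types and a changed site choice within a cell cannot be told apart. Choroid plexus and meningeal genes varied within groups, from 37.4 to 1130 cRPKM among the WT P30 libraries.

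At an acceptor, the U2AF heterodimer reads the pyrimidine tract and the AG that ends the intron, SF1 binds the branch point upstream and the U2 snRNP is recruited there. Where a second usable AG lies upstream, the stretch between both becomes part of the exon when the upstream AG is taken. A stretch whose length is a multiple of 3 leaves the reading frame of the rest of the mRNA in place, and another length shifts it. Sam68 is a STAR family RNA-binding protein that binds U/A-rich RNA and regulates splice choice in neurons.

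The stretches added by the sites that the results turn on are given here as they stand in GENCODE M21 transcripts (GRCm38), found by matching gene, exon size and intron size, with mm9 positions of the exons given as the deposited table has them. Capitals mark the added stretch, and the 12 lower-case letters on each side are the end of the upstream exon and the start of the shorter exon form. They were chosen because they are coding and were called with age or stood among the smallest p-values.
Syt1 9 nt: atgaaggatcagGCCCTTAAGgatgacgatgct
Celf1 12 nt: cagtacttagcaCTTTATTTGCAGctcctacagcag
Nfya 18 nt: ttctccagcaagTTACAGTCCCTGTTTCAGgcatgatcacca
Ehmt1 21 nt: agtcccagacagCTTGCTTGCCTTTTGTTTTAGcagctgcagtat
Mtap7 24 nt: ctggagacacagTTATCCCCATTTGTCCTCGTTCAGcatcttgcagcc
Kalrn 27 nt: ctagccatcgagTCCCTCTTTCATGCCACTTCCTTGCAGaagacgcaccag
Dyrk1a 27 nt: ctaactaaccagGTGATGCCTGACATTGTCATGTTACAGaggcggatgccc
Adarb1 47 nt: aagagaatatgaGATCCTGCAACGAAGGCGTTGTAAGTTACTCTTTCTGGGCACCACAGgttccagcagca
Cacna1g 51 nt: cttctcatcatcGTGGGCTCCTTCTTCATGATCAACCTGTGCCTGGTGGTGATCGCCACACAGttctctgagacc
Synrg 4 nt: attgcaatgcagGCAGgaataccaatgg
Every stretch shown ends in AG, which is the downstream acceptor's own AG. The stretches of Kalrn, Ehmt1 and Mtap7 hold 77.8, 76.2 and 75% pyrimidines. The exons are at chr10:108073607-108073729 (Syt1), chr2:90846777-90846852 (Celf1), chr17:48531665-48531831 (Nfya) and chr2:24719413-24719449 (Ehmt1). The others are at chr10:19981641-19981789 (Mtap7), chr16:34220142-34220360 (Kalrn), chr16:94885349-94885468 (Dyrk1a), chr10:76784394-76785375 (Adarb1), chr11:94320408-94321191 (Cacna1g) and chr11:83792422-83792552 (Synrg). In these genes the annotation holds the shorter form too, except for Ehmt1 and Synrg.

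The same match gave a stretch for 1433 of the 2464 sites. A further 145 had no single exon end in the table and 886 had no match or several. Of the 1433 stretches, 1430 (99.8%) ended in AG, 73.1% in CAG, 14.4% in TAG, 11% in AAG and 1.19% in GAG. A total of 1007 were coding in a transcript, and 41% of these had a length that is a multiple of 3, against 29.3% of the 426 that were not coding. Median pyrimidine content was 63.2% for stretches of 10 to 27 nt and 54.9% for those of 28 to 99 nt. Stretches of 4 nt most often read GCAG (30 of 136) or GAAG (22), and those of 5 nt most often read AACAG or GACAG (8 each of 78).

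Over all 2464 sites, added length had a median of 39 nt and ran from 4 to 473 nt. The length was a multiple of 3 at 906 sites (36.8%) and not at 1558 (63.2%). The shortest stretches stood apart: 190 sites added 4 nt and 125 added 5 nt, with medians of 88.7 and 86.4% PSI. The 468 sites of 4 to 9 nt had a median of 84.8% PSI, with 25.2% in multiples of 3. The 500 sites of 10 to 27 nt had the highest share of multiples of 3, 49.4%, and a median of 38.3% PSI. The 1087 sites of 28 to 99 nt had 38.2% in multiples of 3 and a median of 47.4% PSI. The 372 sites of 100 to 300 nt had 31.5% and 39.2%, and the 37 longer ones 24.3% and 27.3%. In all, 1529 sites lay in exons with 2 acceptors and 935 in exons with more, where the PSI values depend on each other because they sum to 100.

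**Figure D1:**
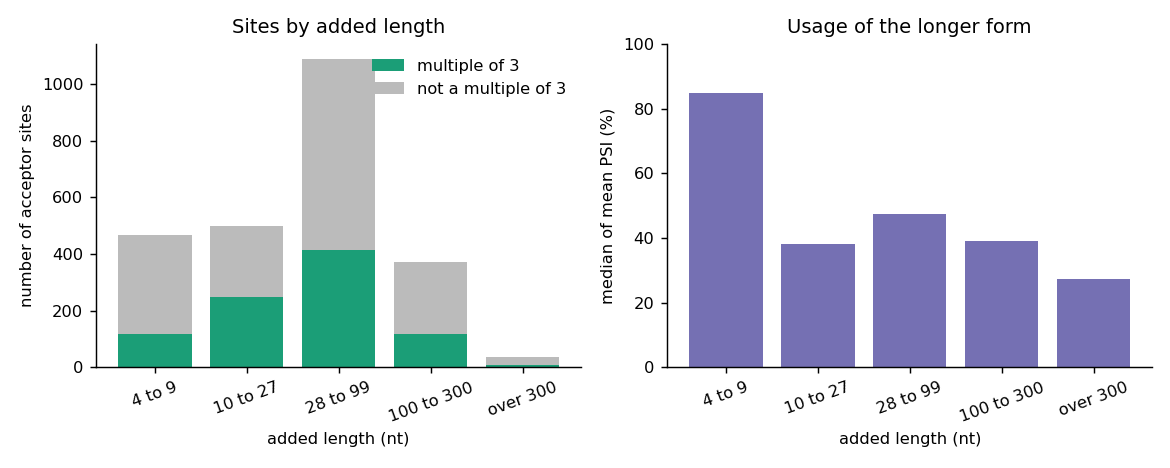
Left, number of acceptor sites by added length in nt, split by whether the length is a multiple of 3; right, median over sites of the mean PSI in percent, for the same length classes. The 4 to 9 nt class has the highest median usage, 84.8%, and the 10 to 27 nt class the highest share of multiples of 3, 49.4%.

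Usage of most sites differed little between the groups. The median over sites was 55.4% in KO P1, 55.2% in WT P1, 55.2% in KO P10, 54.3% in WT P10 and 55.1% in WT P30. Among 2082 sites with a value in each of the 5 groups, the range of the group means had a median of 8.7 points. It was under 10 points at 1191 sites (57.2%) and over 30 points at 89 (4.27%). The median standard deviation within a group was 2.97 to 4.56 points.

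Differences were tested on the log2 odds of site usage with limma, fitted over all events of the table and adjusted over all of them by the Benjamini-Hochberg method. A site was called at an adjusted p below 0.05 and a difference of at least 10 points. Knockout and wild type gave no called site at either age. At P1, 0 of 2085 tested sites were called against 0.00264% of all events. An unadjusted p under 0.05 was found at 88 sites (4.22%), against 4.4% of all events. At P10, 0 of 2185 were called against 0% of all events, and 105 (4.81%) had an unadjusted p under 0.05, against 4.53% of all events. Without WT P10 library 6, 1 site was called at P10, in Ppdpf, and with a minimum of 20 reads 1 site, in Acaca. Differences of 10 points or more, without regard to p, were seen at 181 sites (8.68%) at P1 against 9.01% of all events, and at 219 sites (10%) at P10 against 10.9%. The difference between the ages in the knockout effect gave 0 called sites of 2016 against 0% of all events. There, 63 (3.12%) had an unadjusted p under 0.05, against 2.65% of all events.

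The site with the smallest p at P1 was in Fam3a, which encodes a secreted cytokine-like protein. Its 75 nt stretch was at 0, 0 and 0% in KO P1 and at 4.9 and 16.2% in WT P1, a difference of −10.5 points (adjusted p = 0.352). Next was a 57 nt site of Eif2c1, the Argonaute gene now called Ago1, at 87.6, 92.7 and 88.7% in KO P1 and 99.6 and 99.5% in WT P1, a difference of −9.9 points (adjusted p = 0.374). All 3 KO libraries lay below both WT libraries at each of these sites. They were picked by their p in these same libraries, so the separation is no further support. A 102 nt site of Tbata, a thymus, brain and testis gene, was at 62, 60.8 and 72.2% in KO P1 and 38.1 and 47.5% in WT P1, 22.2 points higher (adjusted p = 0.604). Tbata was itself higher in KO P1 by 1.93 ± 0.23 (SE) on the log2(cRPKM + 1) scale, with adjusted p = 0.00723.

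A 7 nt site of Gpx4, the phospholipid hydroperoxide glutathione peroxidase, gave the widest gap among these sites. It was used at 16.4, 31.9 and 49.3% in KO P1 and at 100 and 90.9% in WT P1 (unadjusted p = 0.00116, adjusted p = 0.548). The site had 14 to 44 reads per library and was at 32.3, 91.7 and 37% in KO P10, against 71.9 and 92.8% in WT P10, so the groups overlapped at P10. Gpx4 has near-identical copies in the genome, so its reads are uncertain. Sntg2 had 10 or more reads in only 2 of the KO P1 libraries, at 66.7 and 53.3%, against 15.4 and 21.4% in WT P1 (adjusted p = 0.634), and KO P1 library 15, at 83.3% of 6 reads, was left out of the fit.

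At P10 the smallest p was that of the 4 nt site of Synrg, which encodes synergin gamma, a partner of the clathrin adaptor AP-1. Usage was 100, 100 and 99% in KO P10 and 94.1 and 84.8% in WT P10, with a difference of 10.2 points and 3.62 ± 0.72 (SE) in log2 odds (unadjusted p = 0.000319, adjusted p = 0.338). Every KO P10 library lay above both WT P10 libraries, but the site was picked by its p in these same libraries. Sites of Arap3, Per3 and Wdr90 were 11.4, 10.2 and 8.5 points higher in KO P10 and a site of Rbbp8 differed by −15 points, with adjusted p from 0.352 to 0.663. The Arap3 site was at 15, 13.3 and 5.9% in KO P10 and at 0% in both WT P10 libraries. These shares rest on only 15 to 20 reads per library in KO P10 and 21 in WT P10. Per3 is a period gene of the circadian clock, and Rbbp8 encodes CtIP, which acts in DNA end resection. Rbbp8 had under 10 reads in KO P10 library 10, which was left out of its fit.

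Genes studied earlier for Sam68-dependent splicing held 11 of the sites in 9 genes, and 0 of the 10 tested sites were called in the knockout at either age. These are acceptor sites that lie in such genes and need not be the events studied earlier. Differences at P1 ran from −3.4 points (Ccnd1) to 3.7 points (Cask), and at P10 from −5.4 points (Ccnd1) to 7.7 points (the 69 nt site of Sorbs2). The median absolute difference of these sites was 1.4 points at P1 and 1.1 points at P10, against 2.8 points over the 2085 sites tested at P1 and the 2185 tested at P10. The 2 Mtor sites belong to 1 exon and mirror each other (−1.3 and 1.3 points at P1). Their means in KO P1 were 4.6 and 95.4%, near the limits of PSI, where differences in points are small. The 18 nt site of Bcl2l1, the apoptosis regulator whose donor choice Sam68 is known to affect, was at 7.3, 8 and 6.3% in KO P1 and at 3.9 and 8% in WT P1. The 15 nt site of Cask, a synaptic scaffold kinase, was at 29.5, 29.1 and 27.6% in KO P10 and at 28.7 and 29.2% in WT P10. The 303 nt site of Nrxn3, a presynaptic adhesion molecule, was at 78.4, 68.6 and 74% in KO P10 and at 69.5 and 71.6% in WT P10. At these 3 sites the KO and WT libraries overlapped. The 66 nt site of Ccnd1, the gene of cyclin D1, was at 6.3, 5.8 and 8% in KO P1 against 8.9 and 11.2% in WT P1, and at 13.3, 3.9 and 1.4% in KO P10 against 11.5 and 11.8% in WT P10. Its KO P1 libraries lay below both WT P1 libraries, without a call, and at P10 the groups overlapped, also without a call (adjusted p = 1 in limma at both ages). Nor was any site called in the knockout in the lists of splicing regulators, synapse, channel, cytoskeleton, chromatin or acceptor recognition genes. Calcineurin and its regulators held none of the 2464 sites.

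**Figure D2:**
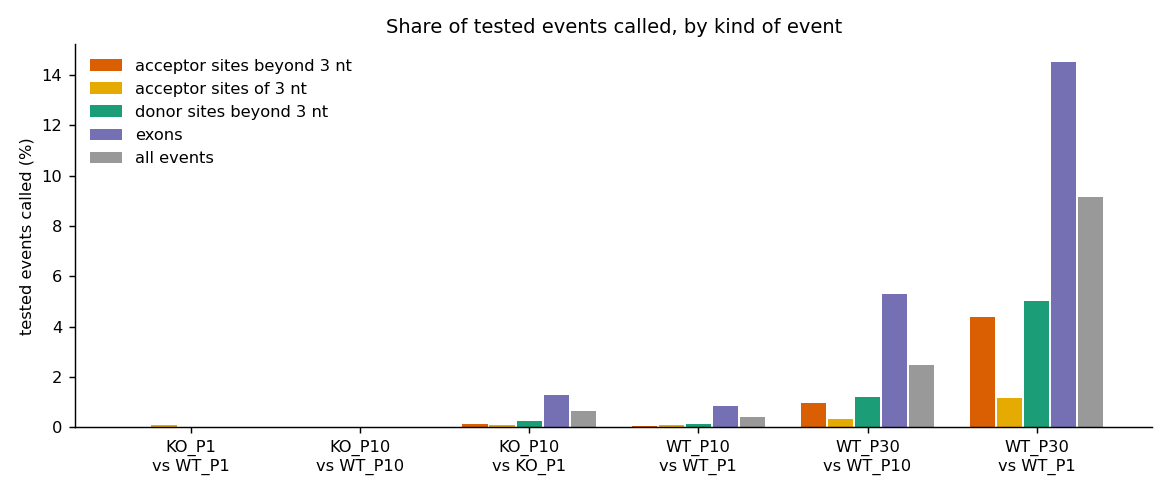
Percent of tested events called in each comparison, for acceptor sites beyond 3 nt, 3 nt acceptor sites, donor sites beyond 3 nt, exons and all events; the first group named on the axis is set against the second. Calls are at or near 0 in the knockout comparisons and reach 4.39% of acceptor sites beyond 3 nt, 14.5% of exons and 9.16% of all events for WT P30 against WT P1.

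Calls came with age. Wild-type P30 against P1 gave 85 called sites of 1937 tested (4.39%), in 82 genes, against 9.16% of all events. Usage was higher at P30 at 51 sites and lower at 34, against 5.62% higher and 3.54% lower over all events. The P30 and P1 libraries did not overlap at the 85 sites, as at 3254 of the 3257 called events of all kinds. By kind of event the share called was 1.15% of 871 acceptor sites of 3 nt, 5.01% of 2397 donor sites beyond 3 nt and 14.5% of 10549 exons. Without WT P1 library 8, the number of called sites was 23, of which 18 were among the 85. Without WT P1 library 9 it was 45, and without WT P30 library 3 it was 49. The part that the markers of library 8, given above, had in the calls was not tested.

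The called sites were spread over the length classes unevenly. Of the 4 to 9 nt sites, 7 of 395 (1.77%) were called, of those of 10 to 27 nt 26 of 393 (6.62%), of those of 28 to 99 nt 26 of 851 (3.06%), of those of 100 to 300 nt 24 of 277 (8.66%) and of those over 300 nt 2 of 21 (9.52%). By direction, 21 of the 26 called sites of 28 to 99 nt were higher at P30, whereas 16 of the 24 of 100 to 300 nt were lower, and over 300 nt 1 was higher and 1 lower. Over all tested sites, called or not, the median difference was 1.4 points at 28 to 99 nt, 1.5 points at 100 to 300 nt and −3.14 points over 300 nt. Multiples of 3 and other lengths were called at 31 of 723 (4.29%) and 54 of 1214 (4.45%). Among the 85, 45 had a matched stretch, of which 32 were coding, and 19 of the 32 had a length that is a multiple of 3. Over all matched stretches, called or not, it was 413 of the 1007 coding ones (41%). Whether the called sites differ from this share was not tested.

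The synapse and vesicle list held 35 of the 2464 sites in 28 genes, and 2 of 28 tested were called for P30 against P1, both lower. The share over all 1937 tested sites was 4.39%, and whether the list differs from it was not tested. Syt1, the calcium sensor of synaptic vesicle release, has its 9 nt stretch in the linker between the membrane anchor and the calcium-binding domains. Its longer form was at 96.1, 98.1 and 98.8% in KO P1 and 94.1 and 96.2% in WT P1, at 86.9, 84.9 and 89.9% in KO P10 and 83.9 and 87% in WT P10, and at 42.7, 46.6 and 48.4% in WT P30. The 3 P30 libraries lay below every other library, while KO and WT overlapped at P1 and at P10. WT P30 differed from WT P1 by −49.2 points (log2 odds −4.54 ± 0.53 SE, adjusted p = 0.000284) and from WT P10 by −39.6 points (adjusted p = 0.0169). Each library had 749 to 2129 reads at this exon. With a library left out, the call against WT P1 held in all 5 fits. The call against WT P10 was lost in 3 of 5, with differences from −41.1 to −38 points.

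Snap91 encodes AP180, which assembles clathrin on synaptic vesicle membrane. Its 15 nt stretch was used at 46.1, 51.4 and 44.1% in KO P1 and 63.2 and 60.5% in WT P1, at 41.1, 44.1 and 44.6% in KO P10 and 45.3 and 38.1% in WT P10, and at 10.3, 15.2 and 16.4% in WT P30. The WT P30 libraries were the lowest, and KO P1 lay below WT P1 without a call. The WT P1 and WT P30 values took part in choosing this site. WT P30 differed from WT P1 by −47.8 points, with the smallest adjusted p of the sites tested (7.66e-05), and from WT P10 by −27.7 points (adjusted p = 0.00469).

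In the cytoskeleton, motors and axon guidance list, with 28 sites in 23 genes, 1 of 26 tested sites was higher and 2 were lower at P30 than at P1. Of all tested sites, 4.39% were called. Epb4.1, protein 4.1R of the membrane skeleton, is known for acceptor choice in an early exon that decides whether an upstream start codon is kept. Its 17 nt site was at 92.4, 89.8 and 93.9% in KO P1 and 90.2 and 90.9% in WT P1, at 78.7, 74.2 and 84.4% in KO P10 and 71.5 and 81.4% in WT P10, and at 42.4, 43.3 and 42.4% in WT P30. WT P30 differed from WT P1 by −47.9 points (adjusted p = 2e-04) and from WT P10 by −33.8 points (adjusted p = 0.0172). KO and WT overlapped at P1 and at P10, and Epb4.1 is also on the list of earlier studied Sam68 targets.

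Kalrn encodes a guanine nucleotide exchange factor of dendritic spines. Its 27 nt stretch was at 76.8, 55.2 and 58.9% in KO P1 and 79.3 and 76.2% in WT P1, at 40.4, 41.3 and 49% in KO P10 and 38.1 and 47.1% in WT P10, and at 52.7, 46.7 and 52.7% in WT P30. WT P30 differed from WT P1 by −27.1 points (adjusted p = 0.0219), and the mean was 50.7% in WT P30 and 42.6% in WT P10, with overlap between their libraries. Mtap7, a microtubule protein that recruits kinesin, was higher at P30. The 24 nt stretch was at 43.2, 36.6 and 25.2% in KO P1 and 42 and 34.6% in WT P1, at 51.2, 38.2 and 26.8% in KO P10 and 40.5 and 23.9% in WT P10, and at 63.7, 78.6 and 73.3% in WT P30. WT P30 was 39.7 points above WT P10 (adjusted p = 0.0269) and 33.6 points above WT P1 (adjusted p = 0.0281). Of the 5 libraries left out in turn, 3 ended the Kalrn call (WT P1 libraries 8 and 9 and WT P30 library 2, adjusted p up to 0.13). For Mtap7 against WT P1, 4 did (all but WT P30 library 1, adjusted p up to 0.141), and against WT P10, 3 did (WT P10 library 6 and WT P30 libraries 2 and 3, adjusted p up to 0.286).

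**Figure D3:**
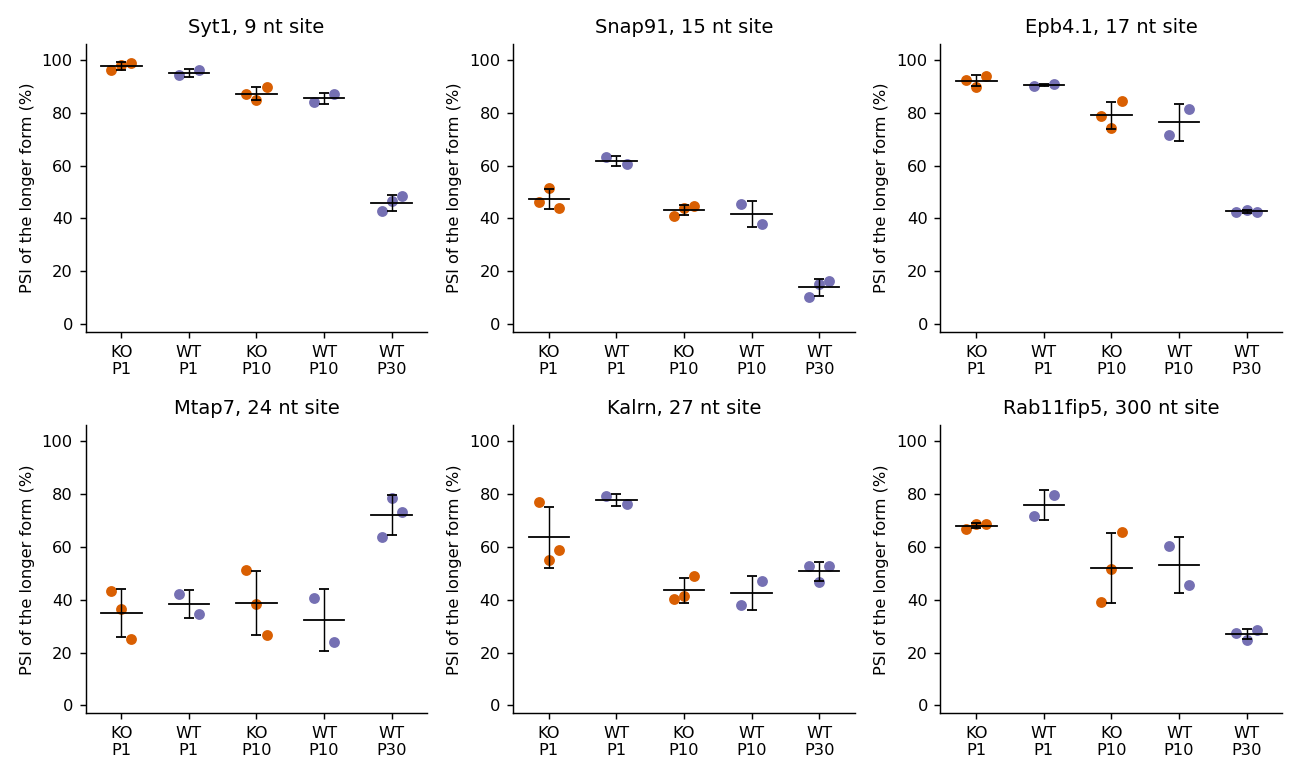
PSI of the longer form in percent at 6 acceptor sites, by group; each point is a library, the long bar is the group mean and the error bar the SD (n = 3, or 2 for WT P1 and WT P10). WT P30 is below all other groups at Syt1, Snap91, Epb4.1 and Rab11fip5 and above them at Mtap7, while at Kalrn WT P30 lies near the P10 groups.

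Long stretches with lower usage at P30 included those of Rab11fip5 and Sept8. Rab11fip5, an effector of Rab11 on recycling endosomes, used its 300 nt stretch at 66.8, 68.7 and 68.7% in KO P1 and 71.8 and 79.7% in WT P1, at 39.2, 51.5 and 65.7% in KO P10 and 60.5 and 45.7% in WT P10, and at 27.3, 24.8 and 28.5% in WT P30. WT P30 differed from WT P1 by −48.9 points (adjusted p = 0.00111). Sept8 encodes a septin, a filament-forming GTPase. Its 445 nt stretch was at 18, 19.6 and 19.2% in WT P30 against 60.7 and 65.2% in WT P1, a difference of −44 points (adjusted p = 0.00216), and Sept8 expression was higher by 2.38 ± 0.18 (SE) on the log2 scale (adjusted p = 2.51e-06). A 221 nt site of Pphln1, a gene-silencing factor, differed by −54.6 points (adjusted p = 0.00602) and a 218 nt site of Ppcdc, an enzyme of coenzyme A synthesis, by −43.2 points (adjusted p = 0.0183), on 11 to 43 reads per library.

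Among splicing regulators, which held 34 sites in 27 genes, 1 of 33 tested sites was higher and 2 were lower at P30 than at P1. Of all tested sites, 4.39% were called. Celf1, a CUG-binding splicing and stability factor, used its 12 nt stretch at 90.2, 93.2 and 87.5% in WT P30 against 79.8 and 70.8% in WT P1 (15 points higher, adjusted p = 0.026). Srsf10, a splicing factor that can repress splicing when dephosphorylated, used a 19 nt site at 20.6, 19.8 and 19.8% in WT P30 against 33.3 and 35.1% in WT P1 (−14.2 points, adjusted p = 0.0415). Ddx5, an RNA helicase, used a 4 nt site at 8.7, 11.1 and 17.2% in WT P30 against 71.5 and 51.1% in WT P1 (adjusted p = 0.0158). The groups did not overlap at any of these 3 sites. The Srsf10 call was lost whichever of the 5 libraries was left out (adjusted p = 0.0506 to 0.147) and under 3 of 7 other settings. The Celf1 call was lost without WT P1 library 9 or WT P30 library 2 (adjusted p up to 0.16), and the Ddx5 call without WT P1 library 8 (adjusted p = 0.14). At Ddx5 the other libraries varied widely, from 44.4 to 76.3% in KO P1 and from 25.5 to 62.8% in WT P10, on 21 to 107 reads.

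Genes of transcription and chromatin held 49 sites in 35 genes, and 2 of 46 tested were called, both higher at P30. The share was 4.39% over all tested sites. Ehmt1, a histone H3 lysine methyltransferase, used its 21 nt stretch at 23 and 24.2% in WT P1, 21.4 and 18.9% in WT P10 and 44.9, 41.9 and 44.4% in WT P30. The rise against WT P10 was 23.6 points (adjusted p = 0.0235). Mll1, the methyltransferase gene now called Kmt2a, used a 119 nt site at 18.6, 15.1 and 19% in WT P30 against 4.3 and 8.3% in WT P1 (adjusted p = 0.0354). Outside the list, Nfya, a subunit of the CCAAT-binding factor NF-Y, used its 18 nt site at 88.8, 89 and 85.2% in WT P30 against 68.7 and 65.7% in WT P10, 20.5 points higher (adjusted p = 0.0167). Cbx1, the heterochromatin protein HP1 beta, used a 24 nt site at 69.2 and 64.3% in WT P30 against 23.1 and 22.7% in WT P1 (43.9 points higher, adjusted p = 0.0124). WT P30 library 2, at 37.5% of 8 reads, was left out of the Cbx1 fit. Calls were lost for Ehmt1 in 4 of 5 fits with a library left out (all but WT P30 library 2, adjusted p up to 0.194), for Mll1 in 4 of 5 (all but WT P30 library 2, adjusted p up to 0.254), for Nfya without WT P10 library 5 or 6 (adjusted p up to 0.147) and for Cbx1 without WT P1 library 8 or 9 (adjusted p up to 0.0613).

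Ion channel and transporter genes held 18 sites in 15 genes, and 1 of 14 tested was called, higher at P30. The share was 4.39% over all tested sites. Cacna1g, a T-type calcium channel of cerebellar neurons, used its 51 nt stretch at 93.3, 91.1 and 92.1% in WT P30 against 82.6 and 79.9% in WT P1, 10.9 points higher (adjusted p = 0.0391). The call was lost without any library but WT P30 library 2 (adjusted p up to 0.155). Genes of acceptor recognition held 6 sites in 5 genes, with 0 of 6 called. The median absolute difference between WT P30 and WT P1 was 4.7 points in the splicing regulator list, 2.9 in the synapse list, 5.1 in the channel list, 5.8 in the cytoskeleton list, 3.5 in the chromatin list and 2.5 in the acceptor recognition list, against 4.4 over all tested sites.

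Adarb1 encodes the RNA-editing enzyme ADAR2, which in rodents is known to edit its own pre-mRNA so that an upstream acceptor is used that adds a frame-shifting stretch. The 47 nt stretch was used at 40.1, 44.9 and 47% in KO P1 and 34 and 42.1% in WT P1, at 45.5, 46.4 and 56.6% in KO P10 and 47.7 and 55.4% in WT P10, and at 64, 70.5 and 68.2% in WT P30. The WT P30 values lay above all others, 29.5 points above WT P1 (log2 odds 1.76 ± 0.33 SE, adjusted p = 0.00665). Adarb1 expression was also higher at P30, by 1.84 ± 0.24 (SE) on the log2 scale (adjusted p = 0.000136). Dyrk1a, a kinase gene with dosage effects in brain growth, used its 27 nt stretch at 53.2, 63.2 and 54.8% in WT P30 against 18.4 and 33.2% in WT P1, 31.3 points higher (adjusted p = 0.0271). The KO P1 libraries were at 39.8, 40.7 and 27.1%. Without WT P1 library 8 neither site was called (adjusted p = 0.0665 for Adarb1 and 0.225 for Dyrk1a), and Dyrk1a was not called without WT P30 library 2 or 3 either.

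Other large differences between WT P30 and WT P1 were higher usage at Mtx3 (51.8 points), Itih3 (36.8), Spns2 (34.2), Alg13 (30.7) and Tsen54 (27.3). Mtx3 is a mitochondrial outer membrane protein, Spns2 a sphingosine phosphate transporter and Tsen54 a subunit of the tRNA splicing endonuclease. Their adjusted p ran from 0.0133 to 0.0256. With a library left out, the call was lost in 3 of 5 fits for Itih3, 2 of 5 for Alg13 and for Tsen54, and 1 of 5 for Spns2. The Tsen54 site had 12 to 24 reads per library in WT P1 and 15 to 22 in WT P30. The Mtx3 site was at 96.6, 97.9 and 93.8% in WT P30 against 40 and 48.5% in WT P1, on 10 to 54 reads, and was not called without WT P1 library 8 or 9 (adjusted p up to 0.0945). Itih3 was itself higher at P30, by 2.94 ± 0.58 (SE) on the log2 scale (adjusted p = 0.00253). The 7 nt Gpx4 site was lower at P30, at 32.3, 54.3 and 32.7% against 100 and 90.9% in WT P1 (adjusted p = 0.031), with the same uncertainty from near-identical copies, and not called without any library but WT P30 library 2 (adjusted p up to 0.22).

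WT P30 against WT P10 gave 20 called sites of 2071 (0.966%), 13 higher and 7 lower, against 2.48% of all events. This comparison shares the P30 libraries with the one above. Besides Mtap7, Cbx1, Ehmt1 and Nfya, the higher sites included those of Strn4 (22.6 points), Ssbp3 (18.1), Brsk2 (18.1), Hmgb3 (26.9), Parp8 (13.6) and Mdga1 (13.6). Ssbp3, a single-stranded DNA-binding cofactor, used its 24 nt site at 20.1, 23.6 and 24.8% in WT P30 against 5.4 and 4.1% in WT P10 (adjusted p = 0.00974). Hmgb3, Mdga1 and Parp8 were lower in expression at P30 than at P10, by −3.92 ± 0.35, −2.12 ± 0.27 and −1.06 ± 0.24 (SE) on the log2 scale. Besides Syt1, Snap91 and Epb4.1, described above, the lower sites included those of Fdxr (−34.2 points) and Mapk8ip1 (−19.4 points). Rpl26 was also called, at 43.4 and 34.4% against 71 and 72.7%, but as a ribosomal protein gene it has near-identical copies and is uncertain, and WT P30 library 2, at 78.4% of 9 reads, was left out of its fit.

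The 20 calls rested on few libraries. The count was 3 without WT P10 library 6, 7 without WT P10 library 5, and 10 without WT P30 library 1 or library 3. The calls of Brsk2 and Parp8 were lost whichever of the 5 libraries was left out. Those of Hmgb3, Strn4 and Mdga1 were lost in 4 of 5 such fits, and that of Rpl26 in 2 of 3. Those of Ssbp3, Fdxr, Mapk8ip1, Snap91 and Epb4.1 were each lost in 1 of 5. WT P10 against WT P1 gave 1 called site of 2052 (0.0487%) against 0.412% of all events. It was a 152 nt site of Hyal3, a hyaluronidase family gene, at 23.8 and 28.5% in WT P10 against 89.1 and 82.4% in WT P1 (adjusted p = 0.0249). Its call was absent without any one of the 4 libraries.

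KO P10 against KO P1 gave 3 called sites of 2176 (0.138%) against 0.668% of all events. The Synrg site was at 100, 100 and 99% in KO P10 and at 85.4, 66.3 and 81.8% in KO P1, 21.8 points higher (log2 odds 4.93 ± 0.65 SE, adjusted p = 0.0032). In wild type the same site was at 94.1 and 84.8% in WT P10 and at 78.6 and 66.6% in WT P1. With a library left out, the Synrg call held in all 6 fits. The Syt1 site differed by −10.5 points between KO P10 and KO P1 (adjusted p = 0.0189). Its call was lost in 4 of 6 fits with a library left out (adjusted p up to 0.079) and under 1 of 7 other settings. The 18 nt site of Nfyc, another NF-Y subunit, was at 28, 12.2 and 29.4% in KO P10 and at 0 and 0% in KO P1 (adjusted p = 0.0173). KO P1 library 15, at 32.7% of 3 reads, was left out of the Nfyc fit, and the other libraries had at most 20 reads. The Nfyc call was lost in 1 of 4 fits with a library left out and under 3 of 6 other settings. The count was 6 without KO P10 library 12 and 1 without KO P10 library 10.

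The 85 sites called between WT P30 and WT P1 were then followed through all groups. The median absolute difference was 8 points between WT P10 and WT P1 and 12.6 points between WT P30 and WT P10, and 51 sites had the larger part of their change after P10. The Trpm4 site had no WT P10 value and does not enter the WT P10 figures. Over all sites tested in each comparison, called or not, the 2 medians were 3.48 and 3.59 points. Among the 51 sites higher at P30, the median PSI was 44% in KO P1 and 49.5% in KO P10, and 38.3% in WT P1, 51.6% in WT P10 and 70.6% in WT P30. Among the 34 lower at P30 it was 56% in KO P1 and 46.9% in KO P10, and 62.4% in WT P1, 43.5% in WT P10 and 26.6% in WT P30. The sign of KO P10 minus KO P1 was that of WT P30 minus WT P1 at 69 of the 85 sites (81.2%), against 1176 of 1928 tested sites (61%). The wild-type values used here chose the sites. The knockout libraries did not enter the choice except through the shared estimate of spread and the limits on reads and usage.

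**Figure D4:**
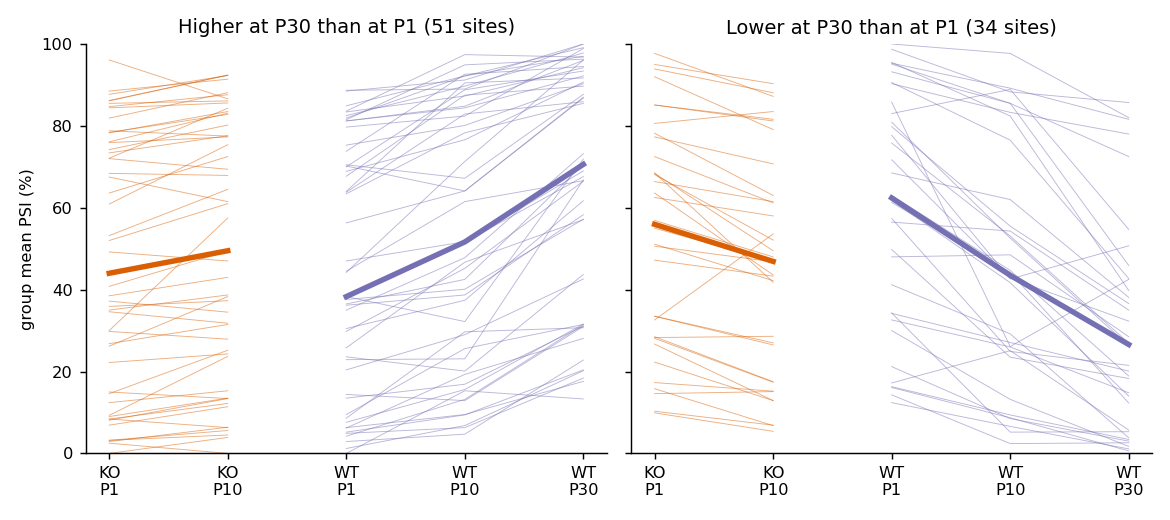
Group mean PSI in percent for the 85 sites called between WT P30 and WT P1, those higher at P30 on the left and those lower on the right; thin lines are sites, thick lines the median over sites, orange knockout and purple wild type. The wild-type medians are 38.3, 51.6 and 70.6% for the higher and 62.4, 43.5 and 26.6% for the lower sites at P1, P10 and P30.

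Where an exon had more than 2 acceptors, calls could come in pairs. In Usp36, a nucleolar deubiquitinase, the 89 nt site was 31.2 points higher at P30 than at P1 and the 55 nt site differed by −30.4 points. In Srrt, the ARS2 gene, the 6 nt site was 27.7 points higher and the 293 nt site differed by −29.1 points. Each such pair is 1 change in choice. Counting exons in place of sites left 82 called of 1713 tested. Usp36 and Srrt were chosen after their values were seen.

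Expression of the host gene changed at some of the 85 sites. The host gene was higher at P30 for 10 sites, lower for 14 and not called for 61. Over all 14063 genes tested, 25.4% were called between WT P30 and WT P1. Mtap7 was 2.5 ± 0.55 (SE) higher on the log2 scale (adjusted p = 0.00484), Cacna1g 1.29 ± 0.24 higher (adjusted p = 0.00162) and Syt1 0.41 ± 0.13 higher (adjusted p = 0.0314). Srsf10 differed by −0.92 ± 0.29 (adjusted p = 0.0331). Snap91, Epb4.1 and Kalrn were not called (adjusted p = 0.345, 0.488 and 0.889).

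Genes whose products recognize the acceptor were examined in expression, from a list of 38, of which 37 were tested. None was called in the knockout at P1 (0.0356% of all genes called) or at P10 (0.00711%). Between WT P30 and WT P1, 5 were lower and 0 higher (13.5% of the list, against 25.4% of all genes). Over all genes 2216 were lower and 1359 higher. The median log2 difference was −0.22 for the list and −0.13 for all genes. Not every listed gene was lower: U2af1l4 and Zrsr1 were 1.28 ± 0.48 and 0.91 ± 0.34 (SE) higher on the log2 scale, without a call (adjusted p = 0.0734 and 0.067). U2af1, the U2AF subunit that contacts the AG, had 69.3, 64.7 and 73.3 cRPKM in WT P30 against 158 and 153 in WT P1, a log2 difference of −1.16 ± 0.16 (SE, adjusted p = 0.000232). U2af2, which binds the pyrimidine tract, had 46.7, 46.5 and 49.2 cRPKM in WT P30 against 75.5 and 108 in WT P1 (−0.91 ± 0.17 SE, adjusted p = 0.00202). Rbm17, Sf3a3 and Sf3b5, of which the last 2 are U2 snRNP components, differed by −0.69 to −0.78 on the log2 scale with adjusted p from 0.0111 to 0.0469. Without WT P1 library 9, 2 of the list were called.

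Between WT P30 and WT P10, 5 of the list were lower and 0 higher (13.5%, against 14.7% of all genes), namely U2af1, Dhx15, Dek, Sf3a3 and Rbm17. Over all genes 1368 were lower and 706 higher. Without WT P10 library 6 the count was 1, and without WT P30 library 1 it was 3. The median over the list was −0.31 on the log2 scale against −0.13 for all genes. Between WT P10 and WT P1, 1 was called (4.05% of all genes), the late-acting second-step factor Prpf18, at 22.4 and 22.5 cRPKM in WT P10 against 10.6 and 8.36 in WT P1 (adjusted p = 0.034). Between KO P10 and KO P1, 1 was called (10.2% of all genes), the core factor Prpf8, with a log2 difference of −0.64 ± 0.18 (SE, adjusted p = 0.0464). The Prpf18 call was absent without any one of the 4 libraries compared, and the Prpf8 call without KO P1 library 13 or KO P10 library 10 or 11. The part of these levels in the change of site usage was not tested.

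**Figure D5:**
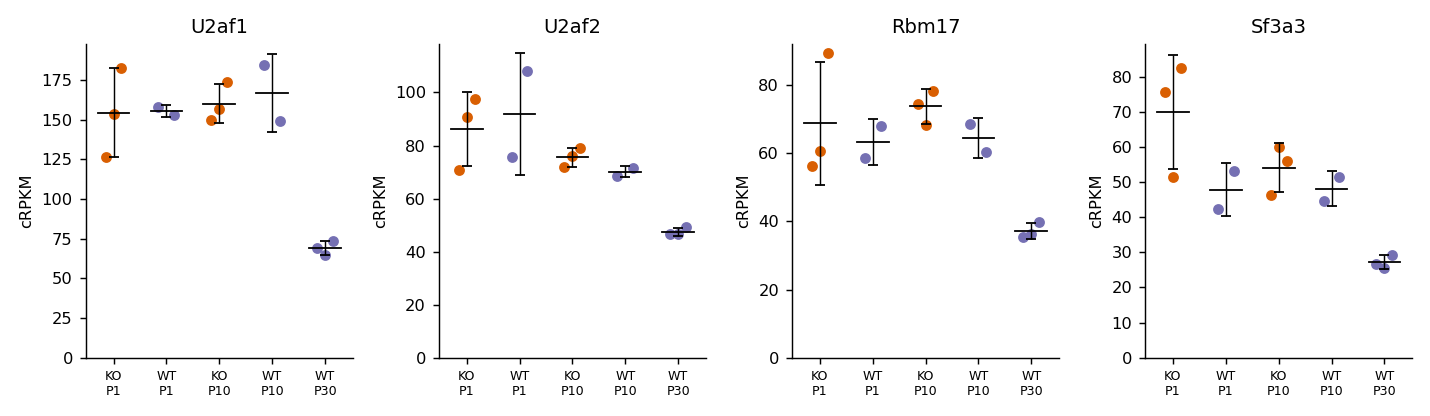
Expression in cRPKM, by group, of 4 of the 5 genes of acceptor recognition called lower in WT P30 than in WT P1; points are libraries, the long bar is the group mean and the error bar the SD (n = 3, or 2 for WT P1 and WT P10). U2af1, U2af2, Rbm17 and Sf3a3 are lowest in WT P30, where U2af1 has 64.7 to 73.3 cRPKM.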

How the data were processed

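Per the labels, total RNA of mouse cerebella was sequenced in 13 libraries after a modified stranded mRNA preparation. FastQC, Trimmomatic and the mm9 build are named in the submitters' processing notes, without versions; no aligner or table-making program is named there. The authors deposited PSI as a percent beside inclusion and exclusion reads, and expression as cRPKM, an RPKM value corrected for mappable length. The deposited PSI equalled 100 times inclusion over all reads within 0.1 points for all 2804083 values with 10 reads.

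Sites were tested with limma 3.58.1 (R 4.3.3, eBayes with trend) on log2((inclusion + 0.5)/(exclusion + 0.5)), with 1 mean for each of the 5 groups and 8 residual degrees of freedom. The fit covered all events of the table with a mean PSI of 5 to 95 and values from 10 reads or more in 2 or more libraries per compared group. The 14063 genes whose mean reached 1 cRPKM in a group were tested on log2(cRPKM + 1). The test of sites was checked on simulated reads. Stretches and figures were made with Python 3.11.15 and matplotlib 3.10.9.

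The rule for named sites took, per comparison, up to 10 of the largest increases and 10 of the largest decreases among called sites whose libraries did not overlap, the 5 smallest p-values of each knockout comparison, up to 4 calls per gene list and the tested sites of earlier studied Sam68 targets. Others are marked. A few sites taken by this rule are counted but not reported here. The sites and gene lists were chosen with earlier results of these data known. Matching 27 list entries through older symbols was added after the files were seen. Library numbers differ between groups, so no pairing was used. Alternatives were other read minimums, offsets, priors, weights, PSI ranges, fits and left-out libraries.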

Additional observations from a re-analysis of the deposited data

How the results depend on the processing

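No paired analysis was possible because the library numbers are not shared between groups. The 85 called sites for WT P30 against WT P1 became 62 to 96 under the other settings and 23 to 70 when a library was left out. Of the 85, 9 were called under all 12 settings and left-out libraries run: those of Epb4.1, P4htm, Rab11fip5, Rapgef3, Rps24, Sept8, Snap91, Ssbp3 and Syt1. Rps24 has near-identical copies and is uncertain. The 20 for WT P30 against WT P10 became 28 with a minimum of 20 reads, 26 with weights by reads, 24 with a prior by reads, 22 with no minimum difference, 10 when events of mean PSI 1 to 99 were tested, 3 when only the groups compared were fitted and 3 to 14 with a library left out. The 1 for WT P10 against WT P1 became 2 with a minimum of 20 reads, 3 with weights by reads, 0 with a prior by reads, 0 with only the groups compared and 0 to 1 with a library left out. The 3 for KO P10 against KO P1 became 0 with only the groups compared and 1 to 6 with a library left out. With a minimum of 20 reads, 1 site was called for KO P10 against WT P10 (Acaca, −37.9 points), and 0 to 1 with a library left out, where Ppdpf was called without WT P10 library 6, also for the difference between ages (0 to 1). KO P1 against WT P1 stayed at 0 under all settings and left-out libraries run.

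For genes of acceptor recognition, fitting only the groups compared gave 0 in place of 1 for WT P10 against WT P1, 9 in place of 5 for WT P30 against WT P10, 15 in place of 5 for WT P30 against WT P1 and 0 in place of 1 for KO P10 against KO P1. The last was also 0 with a pseudocount of 0.1 and with no filter. With a library left out, WT P10 against WT P1 gave 0 to 0, WT P30 against WT P10 1 to 5, WT P30 against WT P1 2 to 5 and KO P10 against KO P1 0 to 1. The cause of these changes was not tested. A wild-type group left with 1 library is assumed to vary like the others.

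Among the sites described, signs turned only at uncalled sites in genes studied earlier as Sam68 targets when a library was left out. At P1 the ranges were −0.8 to 3.3 points (Bcl2l1), −2.3 to 9.6 (Cask), −6.3 to 3.1 and −6.7 to 10.6 (Sorbs2) and −2.8 to 1.2 (Nrxn3). At P10 they were −1.9 to 0.4 (Bcl2l1), −2.3 to 7.6 (Epb4.1), −0.6 to 0.4 (Cask) and −6.1 to 3.5 (Sorbs2). Depth limits sites such as Hyal3, Cbx1, Nfyc and Sntg2, which had under 10 reads in some libraries.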
